A study of Mus musculus with 2 samples.

Results

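The Mir322 cluster is a set of 7 microRNA genes, Mir322, Mir503, Mir351, Mir542, Mir450a-2, Mir450a-1 and Mir450b, that lie side by side on the minus strand of the mouse X chromosome. The members were chosen by gene name and position and not by a threshold on counts, though with earlier results of these data known. All 7 were found among the 2202 microRNA genes of the tables. The GENCODE M21 annotation calls Mir450a-1 and Mir450a-2 by the names Mir450-1 and Mir450-2, and they were matched by identifier and position. MicroRNA sequencing was done on myocytes made from C2C12, an immortal mouse myoblast line of the C3H strain that leaves the cell cycle and fuses into muscle fibres when differentiation is induced. The study has 1 group, C2C12 cells differentiated for 72 h, with biological replicates 1 and 2. The label "differentiation cluster" could not be checked as a change, since undifferentiated cells and other times were not analysed here. Each replicate has its own biosample entry from the same line, and nothing states that the cultures were differentiated separately, so an SD measures the spread between these libraries, which may be technical.

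MicroRNAs are short RNAs that are cut from a hairpin precursor and guide Argonaute proteins to messenger RNAs through their seed, the bases from 2 to 8. Neighbouring microRNA genes are often cut from a shared primary transcript, and each hairpin is then processed, and its product kept or degraded, on its own. The cluster is induced when C2C12 myoblasts differentiate, and miR-322, the rodent counterpart of human miR-424, and miR-503 are known to promote the exit from the cell cycle there by repressing the phosphatase Cdc25a.

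The sequences show which members can act on the same targets and which cannot be counted apart. RefSeq (build GRCm38.p6) listed mature sequences for 7 of the 7 genes, 14 entries with 13 distinct sequences, and hairpins for 6. The seed is in capitals in each mature sequence below. The 5p arms of miR-322 and miR-503 carry the seed of the miR-15 family, which restrains the cell cycle. The seed of miR-322-5p was the same in all 7 bases as that of miR-15a-5p, miR-16-5p and miR-497a-5p. The seed of miR-503-5p shared only the 6-base core with these, and no other mature sequence in the table had all 7 of its bases.

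miR-322-5p: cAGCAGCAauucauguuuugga
miR-503-5p: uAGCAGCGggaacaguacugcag
miR-15a-5p: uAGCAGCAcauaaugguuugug
miR-16-5p: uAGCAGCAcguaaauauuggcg
miR-497a-5p: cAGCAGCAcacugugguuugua

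Outside the seed the pair diverged, and miR-322-5p and miR-503-5p had the same base at 11 of 22 positions. The 5p arm of miR-351, the second most abundant member, has another seed, which it shares with miR-125a-5p and miR-125b-5p. Over the whole length miR-351-5p had the same base as miR-125b-5p at 10 of 22 positions.

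miR-351-5p: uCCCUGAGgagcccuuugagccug
miR-125a-5p: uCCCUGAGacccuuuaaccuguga
miR-125b-5p: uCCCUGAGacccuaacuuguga

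The remaining members are shown with both arms, since the counts do not separate the arms of a hairpin. No other mature sequence in the table had the seed of miR-542-3p, an arm known from human cells to repress the survival factor survivin. The mature miR-450a-5p is the same in Mir450a-1 and Mir450a-2, whereas their 3p arms differ and miR-450a-1-3p shares its seed with miR-450b-3p.

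miR-542-5p: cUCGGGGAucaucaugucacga
miR-542-3p: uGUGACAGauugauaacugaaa
miR-450a-5p: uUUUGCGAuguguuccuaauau
miR-450a-1-3p: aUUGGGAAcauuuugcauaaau
miR-450a-2-3p: aUUGGGGAugcuuugcauucau
miR-450b-5p: uUUUGCAGuauguuccugaaua
miR-450b-3p: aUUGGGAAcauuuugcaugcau

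In build mm10 the cluster runs against the coordinates, from Mir322 at chrX:53054255-53054349 to Mir450b at chrX:53047997-53048078. Mir503 (chrX:53053984-53054054) begins 200 bases after the end of the Mir322 hairpin and Mir351 (chrX:53053255-53053353) a further 630 bases on. A gap of 3767 bases then separates Mir351 from Mir542 (chrX:53049403-53049487). Mir450a-2 (chrX:53048299-53048367) and Mir450a-1 (chrX:53048154-53048244) lie 54 bases apart, and Mir450b follows after another 75. No member overlaps another annotated gene. The long noncoding RNA gene Gm28730 lies between Mir351 and Mir542, the noncoding gene C430049B03Rik ends 696 bases before Mir322 on the same strand, and the nearest protein-coding genes are Plac1, 15645 bases before Mir322, and Hprt, 26337 bases after Mir450b.

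The libraries held 15349205 reads in replicate 1 and 18450359 in replicate 2, and sense-strand counts over all microRNA genes came to 7581366 in replicate 1 and 9865298 in replicate 2. Levels are given in CPM, counts scaled to 1000000 assigned counts of a library, so that 1 count equals 0.132 CPM in replicate 1 and 0.101 CPM in replicate 2. Detection was set at 10 or more counts in both libraries, a minimum that 314 genes met. Of 8 muscle microRNAs 6 were detected. All 8 together had 355284 CPM in replicate 1 and 428244 CPM in replicate 2. Mir206 alone had 340841 CPM of this in replicate 1 and 416794 CPM in replicate 2. Mir133a-1 and Mir133a-2 stayed below the minimum. Their hairpins share stretches of bases with each other and with Mir133b, as those of Mir1a-1 and Mir1a-2 do with each other. Reads that fit more than 1 place are not counted, so low counts of these Mir133a and Mir1a genes do not show low levels. In such bulk RNA, fewer cells with a microRNA and less of it per cell cannot be told apart.

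All 7 members were detected, and together they took 3.14% ± 0.817 of the assigned counts (SD, n = 2). Replicate 1 had 3.72% (Wilson 95% interval 3.70 to 3.73, counting error only) and replicate 2 had 2.56% (2.55 to 2.57). The members made up 59.7% of the assigned counts from the X chromosome in replicate 1 and 59.1% in replicate 2, the larger part in both libraries. Reads that fit more than 1 place are not in these counts, so the share of all X-linked microRNA reads is uncertain. Their levels spanned 3 orders of magnitude, and the order of the 7 genes was the same in both libraries.

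In replicate 1 Mir322 had 209082 counts (27578 CPM), and in replicate 2 it had 128413 counts (13017 CPM). It was the most abundant member in both, with 20298 ± 10297 CPM (SD, n = 2). By assigned counts, which leave out reads that fit more than 1 place, it had rank 10 among all microRNA genes. Its hairpin is shown with both mature arms in capitals, since either arm could have given these reads.

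Mir322 hairpin: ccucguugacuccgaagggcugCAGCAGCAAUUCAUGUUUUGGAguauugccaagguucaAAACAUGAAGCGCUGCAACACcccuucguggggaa

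In replicate 1 Mir351 had 53488 counts (7055 CPM), and in replicate 2 it had 103322 counts (10473 CPM). It ranked second in the cluster in both, with 8764 ± 2417 CPM and rank 16 among all genes by assigned counts. Mir503, which shares the 6-base core of its seed with Mir322 and lies next to it, was far less abundant: it had 1329.8 CPM in replicate 1 and 969 CPM in replicate 2 (1149 ± 255 CPM). Mir322 had 20.7 times the counts of Mir503 in replicate 1 and 13.4 times in replicate 2.

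Mir542 had 810.0 CPM in replicate 1 and 913 CPM in replicate 2 (861 ± 72.7 CPM). This was the narrowest spread of a member relative to its mean. Mir450b, the last hairpin of the cluster, had 279.6 CPM in replicate 1 and 132 CPM in replicate 2 (206 ± 104 CPM). Mir450a-2 had 556 counts (73.3 CPM) in replicate 1 and 870 counts (88.2 CPM) in replicate 2. Mir450a-1 had 212 counts (28.0 CPM) in replicate 1 and 91 counts (9.22 CPM) in replicate 2, the lowest of the 7 genes in each library. Among neighbours in the order of mean levels, the mean ± SD ranges overlapped for Mir322 with Mir351 and for Mir503 with Mir542. They did not overlap for the other neighbours.

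**Figure D1:**
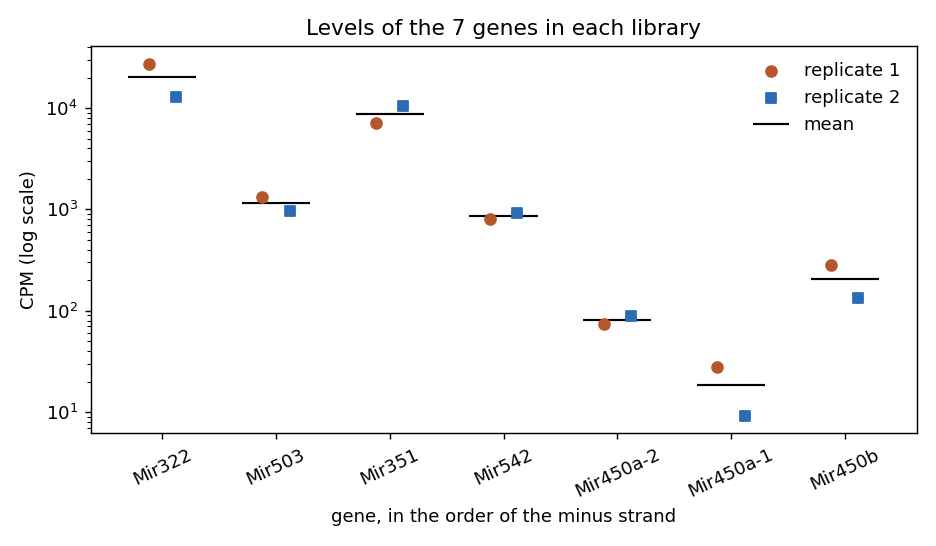
Level of each of the 7 genes in CPM (log axis) in replicate 1 (circles) and replicate 2 (squares), with the mean as a line; genes stand in the order of the minus strand. Mir322 and Mir351 have the largest means (20298 and 8764 CPM), and Mir450a-1 has the smallest (18.6 CPM).

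The levels followed the order of the hairpins only in part. The 3 genes within 1 kb of the start of Mir322 included both of the most abundant members, and all 3 genes at the far end, from Mir450a-2 on, had means of 206 CPM or less. The order was broken by Mir503, which lies 295 bases after the start of Mir322 and had a lower mean than Mir351, 996 bases after it. It was broken again by Mir450b, which comes last, 6271 bases after it, and had a higher mean than both copies of Mir450a.

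**Figure D2:**
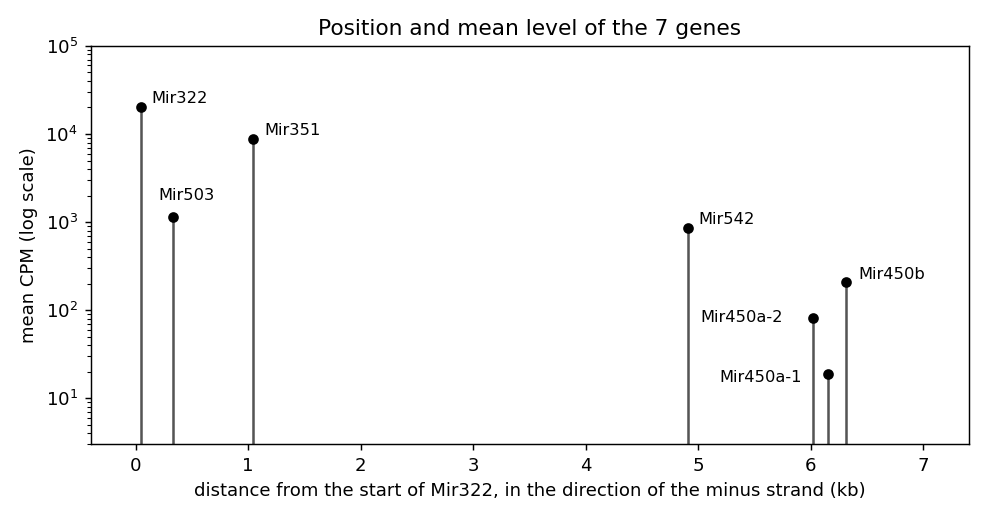
Mean CPM (log axis, n = 2) of each of the 7 genes against the distance of its hairpin's midpoint from the start of Mir322 in kb, read along the minus strand. Mir450b, 6271 bases from the start of Mir322, has a mean of 206 CPM, above Mir450a-2 with 80.8 CPM and Mir450a-1 with 18.6 CPM.

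The counts of the Mir450a copies are uncertain. Their hairpins share a stretch of 25 bases, the longest between any members, and the whole of miR-450a-5p lies in both. Every other arm of the cluster lay in 1 annotated hairpin only. Reads that fit more than 1 place were held in a separate entry, which took 22.0% of all reads in replicate 1 and 17.9% in replicate 2, so reads of miR-450a-5p could be missing from both genes. Both hairpins are shown with their mature arms in capitals. The 5p arm is the same in both, and the 3p arms had the same base at 16 of 22 positions.

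Mir450a-1 hairpin: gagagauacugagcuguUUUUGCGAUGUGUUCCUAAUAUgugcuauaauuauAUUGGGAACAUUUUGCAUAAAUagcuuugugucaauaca
Mir450a-2 hairpin: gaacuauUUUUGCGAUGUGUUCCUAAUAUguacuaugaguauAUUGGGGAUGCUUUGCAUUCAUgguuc

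Mir450a-2 had 2.62 times the counts of Mir450a-1 in replicate 1 and 9.56 times in replicate 2. Summed, the copies had 99.4 ± 2.75 CPM, a smaller spread than either copy alone. Mir450b shares no stretch longer than 19 bases with Mir450a-1 and 9 with Mir450a-2. Still, miR-450b-3p and miR-450a-1-3p had the same base at 20 of 22 positions, and whether short reads of these arms were told apart was not tested.

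The members did not move together between the libraries. Mir322, Mir503, Mir450a-1 and Mir450b were higher in replicate 1, and Mir351, Mir542 and Mir450a-2 were higher in replicate 2. Each gene's counts were compared by an exact binomial test (two-sided) whose null share was set by the totals of the libraries, with p-values adjusted over 314 genes by the Benjamini-Hochberg method. By it, 7 of 7 members passed the threshold of 0.05, against 66.6% of all detected genes. The members' directions were 4 higher in replicate 1, where 38.2% of detected genes were called, and 3 higher in replicate 2, where 28.3% were called. The test compares these libraries for counting error and no conditions.

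Mir322 was 2.12-fold higher in replicate 1 (exact 95% counting interval 2.10 to 2.13), a log2 ratio of 1.08 (log2 ratios are of CPM + 1, replicate 1 over replicate 2). Mir351 went the other way, at 0.674 of its replicate 2 level (0.667 to 0.681), a log2 ratio of −0.57. The ratios of Mir503 and Mir542 were nearer to 1, at 1.37-fold (log2 0.46) and 0.887-fold (log2 −0.17). Mir450b was 2.11-fold higher in replicate 1 (1.97 to 2.26) and kept a nearly constant proportion to Mir322, which had 98.6 times its counts in replicate 1 and 98.3 times in replicate 2. Mir450a-1 was 3.03-fold higher in replicate 1 (2.36 to 3.92), and Mir450a-2 was at 0.832-fold (0.746 to 0.926, adjusted p = 0.00122 in the exact binomial test). With the copies summed their log2 ratio was 0.056 and did not pass the test (adjusted p = 0.508).

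More than 2-fold differences were found for 3 of 7 members, Mir322, Mir450a-1 and Mir450b, each higher in replicate 1, which 15.9% of detected genes were. Only Mir450a-1 stayed past 2-fold in either-strand counts, with TMM and with DESeq2 size factors. These settings changed only the scaling of the members, which had 0 counts on the opposite strand. In these settings Mir322 had log2 ratios of 0.99 to just under 1 and Mir450b of 0.97 to 0.99. By the log2 ratio, 11.2% to 11.8% of all genes tested were then past 2-fold higher in replicate 1. With the trend on hairpin GC content removed, 0 of 7 members were, against 8.92% of all genes tested. Removing the trend also recentres all genes, since the intercept of the line is subtracted too. No member was more than 2-fold higher in replicate 2, which 6.05% of detected genes were. The median log2 ratio was 0.46 over the members and 0.09 over all 314 detected genes. Over the 187 genes with at least 100 counts in both libraries, a minimum that 6 members reach, the median was 0.28.

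**Figure D3:**
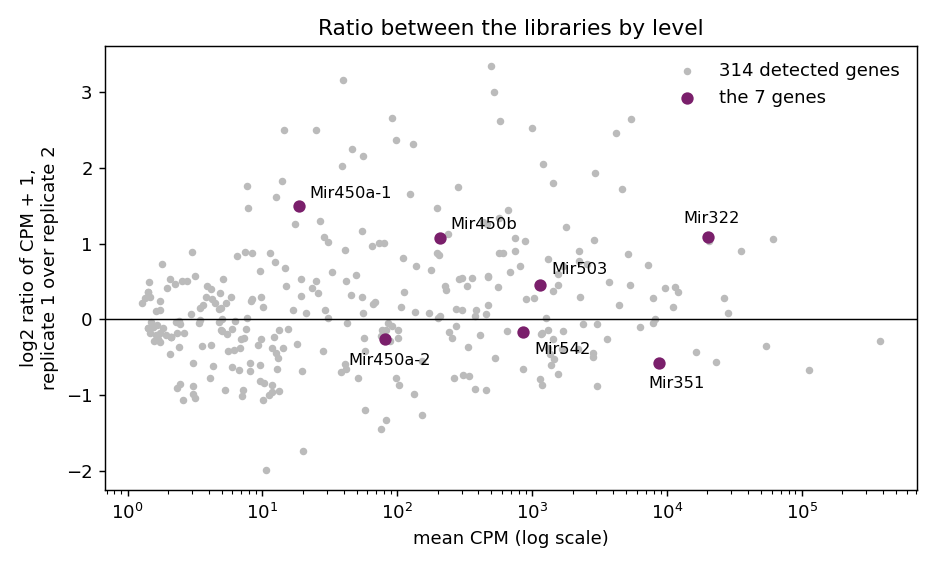
Log2 ratio of CPM + 1, replicate 1 over replicate 2, against mean CPM (log axis) for the 314 detected genes (grey) and the 7 genes of the cluster (purple). The members lie on both sides of 0, from −0.57 for Mir351 to 1.50 for Mir450a-1.

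The balance of Mir322 and Mir351 does not depend on how the libraries are scaled. Mir322 had 3.91 times the counts of Mir351 in replicate 1 and 1.24 times in replicate 2, a 3.15-fold difference in the proportion of these neighbours, which start 996 bases apart. Within the cluster Mir322 took 74.2% of the members' counts in replicate 1 (Wilson 95% interval 74.1 to 74.4) and 50.8% in replicate 2 (50.6 to 51.04). Mir351 took 19.0% in replicate 1 and 40.9% in replicate 2. Mir503 held a steady share, 3.58% in replicate 1 and 3.78% in replicate 2. Mir542 took 2.18% in replicate 1 and 3.57% in replicate 2, and Mir450b took 0.753% and 0.517%.

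Base composition moved with the ratio across genes. Over the 314 detected genes the log2 ratio fell by 0.23 for each 10 percentage points of hairpin GC content (Pearson r = −0.27, Spearman rho = −0.28, genes of the same 2 libraries and given as a description). The hairpins of Mir322 and Mir351 had nearly the same GC content, 51.6% and 50.5%, and their 5p arms had 40.9% and 62.5%. Mir450b and Mir450a-1, both higher in replicate 1, had 30.5% and 33.0%, but Mir450a-2, higher in replicate 2, had 36.2%. With the straight-line trend on hairpin GC content removed, Mir322 stood at 0.86 and Mir351 at −0.81 on the log2 scale, and Mir450b at 0.36. The intercept of the line was removed too, which recentred all genes: their median log2 ratio went from 0.09 to −0.06. The shifts of the members include this recentring, as for Mir322, whose hairpin lies near the median GC content of 51.5%. Mir450a-1 stood at 0.85 in place of 1.50, Mir450a-2 at −0.84 in place of −0.26, Mir542 at −0.39 in place of −0.17 and Mir503 at 0.32 in place of 0.46. The part of arm GC content in the difference was not tested.

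The members' counts were then set against the other genes with their seeds. Within the miR-15 seed family, taken as Mir322, Mir503 and 8 other genes, Mir322 and Mir503 took 87.8% of the counts in replicate 1 (Wilson 95% interval 87.7 to 87.9) and 90.6% in replicate 2 (90.4 to 90.7), or 89.2% ± 1.97 (SD, n = 2). Mir6342, Mir6353 and Mir6419, whose mature sequences also hold the seed of miR-322-5p, were not in the list and had 0 counts in both libraries. Mir497b was listed by its name, but no mature sequence of it with this seed was found. It had 8 counts in replicate 1 and 6 in replicate 2. Mir322 alone had 6.87 times the counts of the other 8 listed genes, without Mir503, in replicate 1 and 8.96 times in replicate 2. Mir15a was the most abundant of those, with 2234 CPM in replicate 1 and 643 CPM in replicate 2. The 2 Mir16 genes had 615 and 190 CPM in replicate 1 and 251 and 59.5 CPM in replicate 2. The mature miR-16-5p is the same in both Mir16 hairpins, so reads of it can be missing from the family's counts, and the share of Mir322 and Mir503 is uncertain. All 6 detected genes of the family outside the cluster were higher in replicate 1, as Mir322 and Mir503 were. Of all 314 detected genes, 169 were higher in replicate 1. The median log2 ratio was 1.38 over the 6 genes and 0.09 over all detected genes, or 0.28 over genes with at least 100 counts in both libraries. The hairpins of the 6 genes had a median GC content of 44.7%, against 51.5% over all detected genes, and the part of GC content was not tested.

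Among Mir351, Mir125a and the 2 Mir125b genes, Mir351 held 73.1% of counts in replicate 1 and 79.5% of them in replicate 2. Mir6367 and Mir6394, whose mature sequences also hold this seed, had 0 counts in both libraries. Mir125a had 1137 CPM in replicate 1 and 1477 CPM in replicate 2, a log2 ratio of −0.38. Mir125b-1 went the other way, with 1139 CPM in replicate 1 and 937 CPM in replicate 2, and its count is uncertain since miR-125b-5p lies in both Mir125b hairpins.

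**Figure D4:**
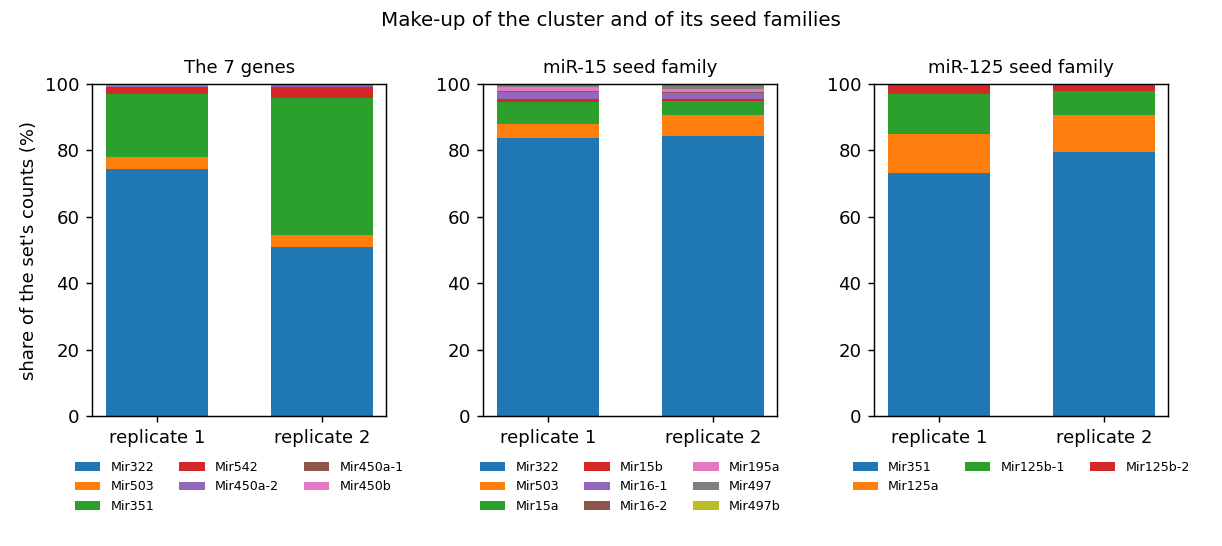
Share of counts (%) in replicate 1 and replicate 2 within the 7 genes (left), the listed genes of the miR-15 seed family (middle) and of the miR-125 seed family (right). Mir322 holds 74.2% of the cluster in replicate 1 and 50.8% in replicate 2, and it holds 83.8% and 84.3% of its seed family.

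The cluster was compared with other runs of neighbouring microRNA genes, taken as genes on the same strand with gaps of at most 10 kb. There were 11 such runs with at least 3 detected genes, and the 7 members formed 1 of them with no other gene. Its summed mean of 31378 CPM was second to the 3 genes of the Mir23a run with 32222 CPM, ahead of the Mir23b run with 19657 CPM and the X-linked Mir532 run with 15308 CPM. The order of the first 2 turned between libraries, with 37154 CPM for the cluster and 34522 CPM for the Mir23a run in replicate 1, and 25601 CPM for the cluster and 29922 CPM for the Mir23a run in replicate 2. The spread of levels within it was wider than in the other 10 runs: the highest mean was 1092 times the lowest, against 364 times in the Mir17 run, 124 times in the Mirlet7d run, 57.8 times in the Mir23b run and 6.35 times in the Mir532 run. That first place rests on the uncertain Mir450a copies. With every gene left out that has 20 bases in common with a second hairpin, a comparison added after seeing the data, 7 runs kept at least 2 genes, and the span was 98.5 times in the cluster and 364 times in the Mir17 run. The Mir23a, Mir23b and Mirlet7d runs were not among these 7. Reads that fit more than 1 place can be missing from their genes too, so their sums, places and spans are also uncertain. The cluster also has the most detected genes of the 11 runs. These are descriptions with no test.

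**Figure D5:**
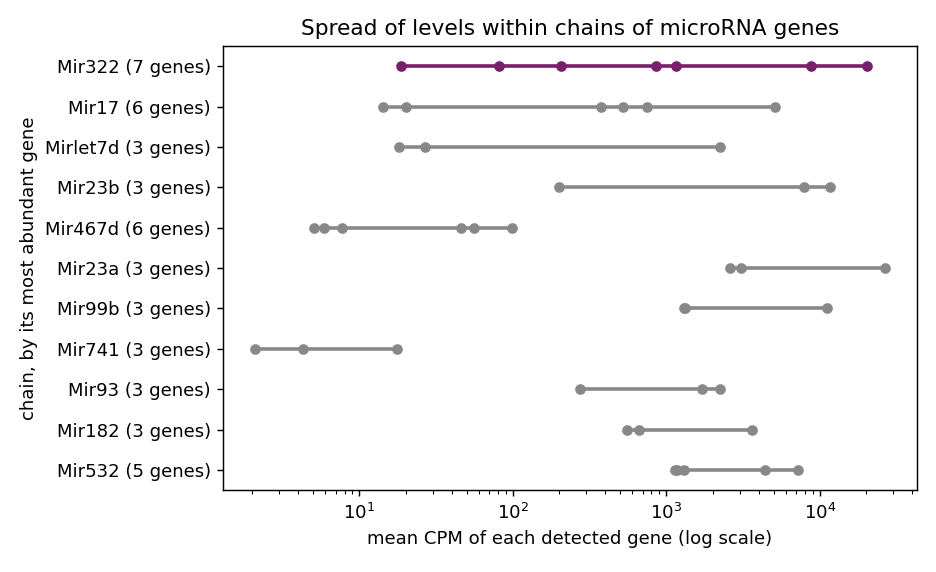
Mean CPM (log axis, n = 2) of each detected gene in the 11 runs of neighbouring microRNA genes, 1 line per run, named by its most abundant gene and sorted by the ratio of its highest to its lowest mean. The 7 genes of the cluster (purple) span a ratio of 1092, and the run below it, named by Mir17, spans 364.

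The disagreement of members between libraries was of a size found in other runs. The log2 ratios of 2 members differed by a median of 1.03 over the 21 pairs of members, and by a median of 0.85 over 90 pairs of detected neighbours in 39 other runs with at least 2 detected genes, from the same libraries. The difference of 1.65 between Mir322 and Mir351 was reached by 23.3% of those other pairs. Most of the pairs that reached it came from the Mir17 and Mir467d runs, with 6 detected genes each. Pairs within a run are not independent, and they were not matched for counts. Mir669c of the Mir467d run had only 36 counts in replicate 1 and 53 in replicate 2. In the Mir17 run the log2 ratios lay between −1.74 and 3.01, a wider range than the −0.57 to 1.50 of the members. In the X-linked Mir532 run they lay between −0.79 and 0.72, and its summed log2 ratio was 0.30 against 0.54 for the members.

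Among all detected genes, Mirlet7i of the let-7 family was closest to Mir322 in log2(CPM + 1) over the 2 libraries, with 27586 CPM in replicate 1 and 13491 CPM in replicate 2, a distance of 0.0516. The next were Mir23a at 0.888 and Mir133b at 1.06. In mean level Mir322 stood between Mirlet7i (20538 ± 9967 CPM) and Mir130a (16402 ± 3465 CPM), and these 3 did not differ beyond their spread. The genes closest to Mir351 were Mir149 at a distance of 0.412, Mir100 at 0.428 and Mir27b at 0.631, and none of these had a log2 ratio below −0.05. In mean level Mir351 stood between Mir140 (9746 ± 1990 CPM) and Mir100 (8104 ± 43.7 CPM), again within its spread. With 2 libraries, such likeness rests on 2 values for each gene.

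Of 10 further microRNA genes tied to myoblast differentiation, all 10 were detected, 6 called higher in replicate 1 and 4 higher in replicate 2, against 38.2% and 28.3% of all detected genes, with a median log2 ratio of 0.26. Mir206, the most abundant gene of the libraries, had 340841 CPM in replicate 1 and 416794 CPM in replicate 2, and Mir29a, which restrains collagen genes, had 6134 CPM in replicate 1 and 4489 CPM in replicate 2. By assigned counts, markers of other cell types were below the 4 most abundant members but not all below the Mir450 genes. The part of these markers in the members' levels was not tested. In replicate 1 the summed levels were 105 CPM for 5 blood genes, 8.71 CPM for 6 epithelial genes and 0 for 5 neural genes. In replicate 2 they were 183 CPM, 5.47 CPM and 0.101 CPM for the same lists. Mir126a, an endothelial microRNA, had 217 CPM in replicate 1 and 42.9 CPM in replicate 2. Mir200a, Mir429, Mir124a-1, Mir124a-2, Mir9-1 and Mir9-2 had no counts in either library. At these depths a count of 0 leaves room for 3 counts, or 0.396 CPM in replicate 1 and 0.304 CPM in replicate 2. This limit covers counting depth only. The Mir124a and Mir9 hairpins share stretches of bases with their own copies, and reads that fit more than 1 place are not counted. Reads of these neural genes could therefore be missing, and the limit does not bound their levels.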

How the data were processed

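MicroRNA libraries from total RNA of 2 replicates of C2C12 myocytes at 72 h were analysed. Adapters were trimmed, per the labels' protocols. The authors deposited whole-number read counts per microRNA gene without normalization, as far as the values show; build mm10 and annotation M21 are per the deposited notes, and for the aligner and counter: not given in the sources used here. Each table has 3 count columns (either strand, sense, opposite), of which sense was used, and 4 entries for reads in no gene, which were left out of totals. This left 49.4% of reads in replicate 1 and 53.5% in replicate 2. All 2202 identifiers matched M21; sequences are from RefSeq.

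CPM used library totals, and log2 ratios a pseudocount of 1 CPM. Counts were compared between libraries with an exact binomial test (scipy 1.17.1), tested on simulated data, where the limit for unchanged genes called was missed in a first simulated set and then replaced by one on the false share of calls; the test itself was not changed. The test's adjusted p-values cover counting error only, since it sets 1 library against 1 library with no term for other spread. No molecular identifiers are stated, so repeated reads of 1 molecule are not excluded. TMM (edgeR 4.0.16) and DESeq2 1.42.0 size factors, strand, minimum counts, denominators, pseudocounts, summed copies, a GC trend and left-out replicates were alternatives. Named genes are the members, the fixed lists, the nearest genes by level and the largest runs. Members and lists were chosen with earlier results of these data known.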

Additional observations from a re-analysis of the deposited data

Results flagged for a closer look

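Reads outside the gene counts far exceeded 3 counts, the limit that a count of 0 sets. The entry for reads that match several places held 3378438 reads in replicate 1 and 3295854 reads in replicate 2. The mature miR-450a-5p lies in both Mir450a hairpins, and how many of its reads are in that entry was not tested. The opposite strand of the 7 members had 0 counts in both libraries.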

How the results depend on the processing

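All 7 members passed the counting test under either-strand counts, TMM, DESeq2 size factors and a minimum of 1 count, and 6 did with a minimum of 100 counts, which Mir450a-1 does not reach. The share of all genes tested that passed was 40.9% with a minimum of 1 count, 88.8% with a minimum of 100 and 65.8% to 66.6% in the other 3 settings. Members more than 2-fold higher in replicate 1 numbered 3, but 1 in either-strand counts, with TMM and with DESeq2 size factors, 2 with copies summed and 0 with the GC trend removed, a count added after seeing the data. With copies summed, 5 of 6 entries passed the counting test, against 67.2% of all genes tested. The log2 ratio of Mir450a-2 was then 0.056 in place of −0.26, since the sum joins copies of opposite direction. The members' share of 3.14% was 1.60% over all reads and 5.01% without Mir206, through the denominators alone. Their summed log2 ratio of 0.54 was 0.45 in either-strand counts, 0.44 with TMM, 0.45 with DESeq2 size factors and 0.31 with the GC trend removed. The GC setting also recentres all genes, so its values hold more than the trend. The share of Mir322 and Mir503 in the miR-15 seed family was 91.2% without genes that share 20 bases. The median log2 ratio of all detected genes, 0.09, was −0.02 over all reads and −0.09 without Mir206 in the total. With a minimum of 100 counts it was 0.28. With 1 replicate left out, the members' share ranged from 2.56% to 3.72% and the Mir322 to Mir351 ratio from 1.24 to 3.91. The signs of the other 6 members' log2 ratios held in every alternative run. With 2 libraries no test between conditions exists, and Mir450a-1 rests on 91 counts in replicate 2. No paired analysis was possible because there is 1 group.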
